A study of Mus musculus with 2 samples.

Results

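Type 1 conventional dendritic cells (cDC1s) were examined among single CD45+ leukocytes of *Ptgs*-/- melanomas, tumors whose cancer cells lack the cyclooxygenase enzymes of prostaglandin synthesis. Cells were chosen by their counts of unique molecular identifiers (UMIs, distinct transcript molecules). A cDC1 had at least 1 UMI in 2 or more of the 6 genes *Xcr1*, *Clec9a*, *Gcsam*, *Snx22*, *Wdfy4* and *Tlr3*, called the rule genes here, and 0 UMIs of *Cd209a*, *Fcgr1*, *Siglech*, *Ccr7* and *Cd3e*. This rule selected 96 of 9798 cells, 44 of 5292 in the control library and 52 of 4506 in the NK cell-depleted library.

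Melanoma cells had been implanted into C57BL/6 hosts of 8 weeks, and tumor leukocytes were sorted on day 4. Control hosts were untreated, whereas NK cell-depleted hosts had received 200 µg of antibody against NK1.1 and 30 µg of antibody against asialo GM1 on days 0 and 2. Each group's tumors were pooled for the sort and gave 1 library, and parental melanoma cells were spiked into both. The genotype label of both samples reads wild-type tumor cells, whereas their titles and the design text name a knockout, and this conflict concerns both groups alike. Since each group was a single library, nothing could be tested and no difference had a replicate check. All intervals are exact 95% intervals of the counting error, and leave out how much tumors or libraries vary. Intervals of summed UMIs also leave out how much the cells of a library vary, and are therefore too narrow where few cells hold many UMIs.

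The cDC1 lineage depends on the transcription factors IRF8 and BATF3 and on the growth factor receptor FLT3. These cells take up material of dead cells and present its peptides on MHC class I to CD8+ T cells, a process called cross-presentation. They carry XCR1, the receptor for the chemokine XCL1 that NK cells and activated T cells secrete, and NK cells can also provide FLT3 ligand and interferon gamma (IFNγ). The comparison of both libraries therefore asks how cDC1s differed in number and transcripts when NK cells were absent.

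The rule genes have different roles. *Xcr1* (chr9:123852315-123862029) encodes the XCL1 receptor, and *Clec9a* (chr6:129408862-129424764) a lectin receptor for actin filaments that dead cells expose. *Wdfy4* (chr14:32959547-33193855) is needed for cross-presentation of cell-associated antigen, and *Tlr3* (chr8:45395665-45411075) encodes an endosomal sensor of double-stranded RNA. *Snx22* (chr9:66065174-66069759) encodes a sorting nexin, and *Gcsam* (chr16:45610440-45622867) a signaling adaptor best known from germinal center B cells. All 6 are protein-coding genes, located here from the RefSeq annotation of GRCm38.p6, the assembly behind the mm10 build named in the submitters' processing notes.

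Control and NK cell-depleted libraries held 24810009 and 23245982 UMIs in kept cells, with medians of 4170 and 4893 UMIs per cell. cDC1s were deeper, with medians of 8072 and 7482 UMIs. The NK markers *Ncr1*, *Klrb1c*, *Gzma*, *Prf1*, *Klre1* and *Eomes* defined 570 NK-like cells in the control library (10.8%) and 0 of 4506 in the NK cell-depleted one. Of the barcodes of kept cells, 5 occurred in both libraries, and 0 of them belonged to a cDC1.

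The label was first checked against 20 other genes known for cDC1s, which the rule did not use. Cells with 3 or more rule genes (27 control and 42 NK cell-depleted) carried them at high levels. *Irf8* was detected in 26 of 27 and 42 of 42 of these cells, *Naaa*, a lysosomal amidase, in all of both libraries, and *Flt3* in 23 and 39. Summed over the list, they held 29107 UMIs per 1000000 (CPM) in control and 23470 CPM in NK cell-depleted tumors. In comparison, the cells that missed the rule by 1 gene (284 and 340 cells with exactly 1 rule gene and no excluded gene) held 3430 and 3543 CPM. *Flt3* was seen in 6 and 9 of them, *Irf8* in 147 and 149 and *Naaa* in 171 and 234. *Irf8* and *Naaa* were thus also common just outside the rule.

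The cells just inside the rule were mixed. Exactly 2 rule genes were seen in 17 control and 10 NK cell-depleted cells, and in 12 and 6 of them the pair was *Wdfy4* with *Tlr3*. Markers of monocytes and macrophages (11 genes, among them *Lyz2*, *Apoe*, *Csf1r* and the complement genes *C1qa* to *C1qc*) held 14552 CPM in the 17 control and 8322 CPM in the 10 NK cell-depleted cells. In cells with 3 or more rule genes they held 558 and 684 CPM. *Csf1r*, the receptor of the macrophage growth factor, was seen in 13 of 17 and 5 of 10 cells with exactly 2 rule genes, and in 0 of 27 and 3 of 42 cells with more.

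**Figure D1:**
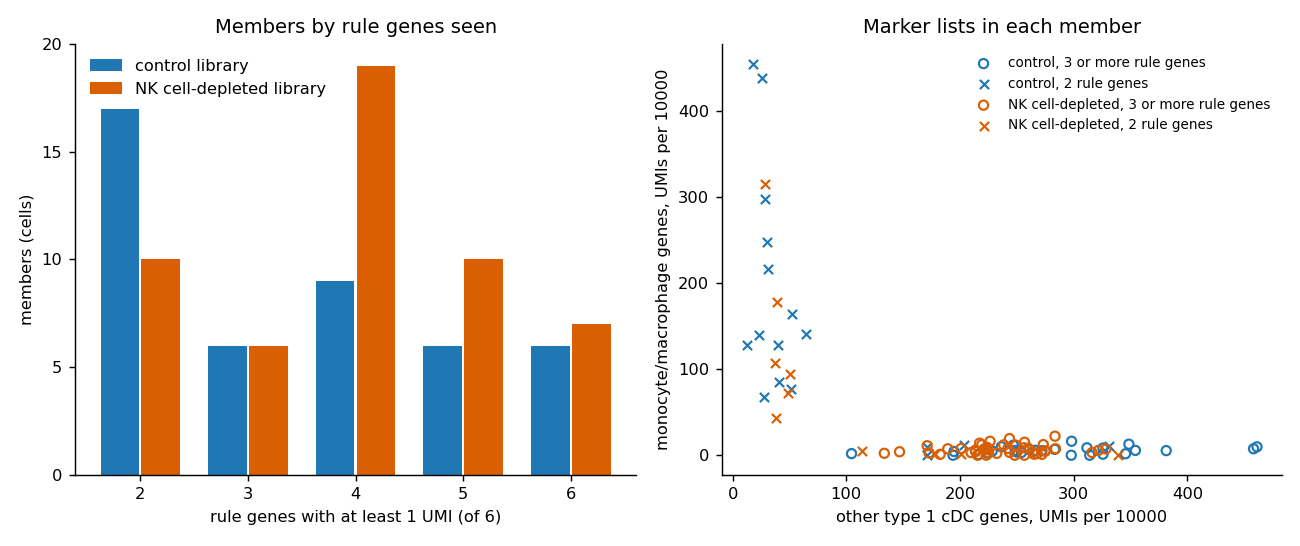
Left, number of cDC1s (y axis) by how many rule genes had a UMI (x axis), in the control (blue) and NK cell-depleted (orange) libraries. Right, each point is 1 cDC1, placed by its UMIs of the other cDC1 genes (x axis) and of monocyte and macrophage markers (y axis), both per 10000 UMIs of the cell. All cells with 3 or more rule genes lie above 100 on the x axis, whereas 13 control and 6 NK cell-depleted cells with exactly 2 lie below it.

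Per cell, both marker lists separated the 96 cells into a pair of sets with no overlap. In the control library, 13 cells had 12.7 to 64.4 UMIs of other cDC1 genes per 10000 and 67.5 to 455 of monocyte and macrophage markers. The other 31 had 105 to 461 and 0 to 16.2, respectively. In the NK cell-depleted library, 6 cells had 28.2 to 50.8 of other cDC1 genes and 43.5 to 315 of monocyte and macrophage markers, whereas 46 had 114 to 339 and 0 to 22.1. The value of 100 per 10000 that separates them was set after the cells were seen. A total of 8 cells with exactly 2 rule genes, 4 per library, fell on the side of the cells with more. The first set thus goes against the label. It made up more of the control cDC1s (13 of 44) than of the NK cell-depleted ones (6 of 52), so most results are given for all cDC1s and for those with 3 or more rule genes, and the folds over other cells for all cDC1s alone.

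Markers of lymphocytes and of the melanocyte lineage were rare in cDC1s. T cell markers, which include the excluded *Cd3e*, had 0 UMIs in both libraries. NK markers had 4 and 0, B cell markers 2 and 2, and melanocyte lineage markers 9 and 1 UMIs. Markers of type 2 conventional dendritic cells, which include the excluded *Cd209a*, had 285 and 196 UMIs. In cells with 3 or more rule genes these had 24 and 58. Neutrophil markers had 424 UMIs in control and 9 in NK cell-depleted cDC1s, and a single control cell held 199 of the 200 UMIs of *S100a9* and all 71 of *Retnlg*. This cell had 3 or more rule genes.

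The excluded genes removed many cells at the edge of the rule and few at its core. Of cells with 2 or more rule genes, 49 of 93 control and 48 of 100 NK cell-depleted cells held an excluded gene, most often *Fcgr1*, the high-affinity IgG receptor of monocytes and macrophages (31 and 33 cells). An excluded gene was present in 50.5% and 52.5% of all kept cells. Of cells with 4 or more rule genes, it was present in 3 of 24 and 3 of 39. Among these, *Ccr7*, the receptor that guides mature dendritic cells to lymph nodes, was seen in 2 control and 0 NK cell-depleted cells.

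Next, the frequency of cDC1s was compared. They made up 0.831% of control cells (0.605 to 1.11) and 1.15% of NK cell-depleted cells (0.863 to 1.51), with a ratio of 0.721 (0.471 to 1.10). This difference was within counting error, and NK cells themselves enlarged the control denominator. With NK-like cells left out of it, the control share was 0.932% and the ratio 0.807 (0.528 to 1.23).

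cDC1s with 3 or more rule genes made up 0.510% of control (0.337 to 0.742) and 0.932% of NK cell-depleted cells (0.673 to 1.26), with a ratio of 0.547 (0.325 to 0.909). With NK-like cells left out of the denominator the ratio was 0.614 (0.364 to 1.02). Those with 4 or more numbered 21 and 36, a ratio of 0.497 (0.276 to 0.874). When every cell was thinned to 2000 UMIs before the rule was applied, 26 and 41 cells met it, a ratio of 0.554 (0.325 to 0.927). The share of cDC1s was thus lower in the control library under each of these definitions, and past counting error only under some of them.

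**Figure D2:**
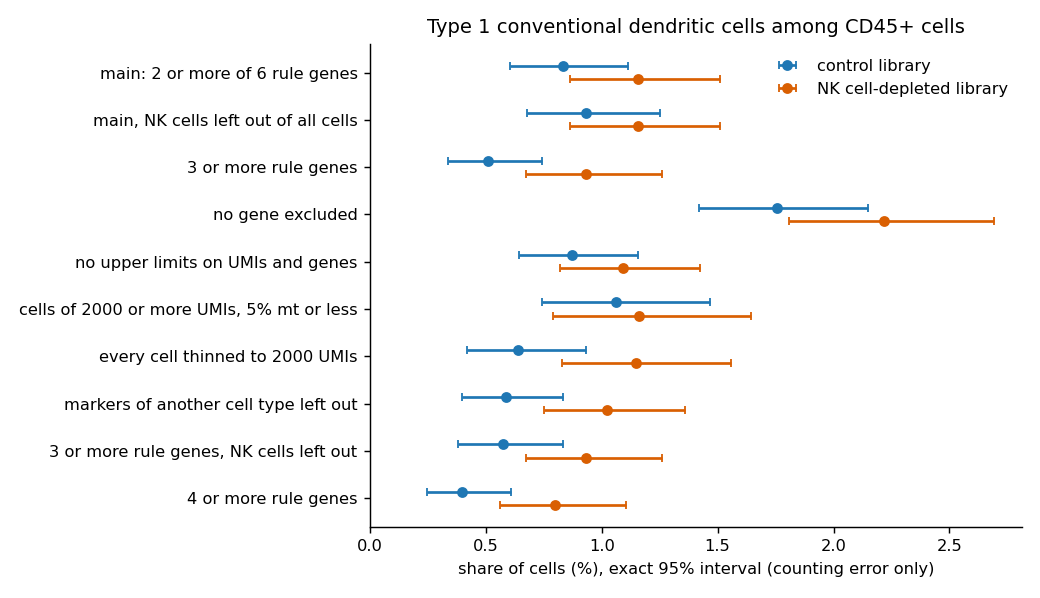
Share of cDC1s among kept CD45+ cells (x axis, percent) in the control and NK cell-depleted libraries under the rule and each alternative (y axis), with points for the shares and bars for exact 95% intervals. The control share is the lower one in every row, from 0.397% against 0.799% with 4 or more rule genes to 1.76% against 2.22% with no gene excluded.

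Relative to other dendritic cells the picture differed by subset. cDC2-like cells, defined by *Cd209a* with *Flt3*, made up 1.19% of control and 2.73% of NK cell-depleted cells, with a ratio of 0.436 (0.317 to 0.596). Migratory dendritic cell-like cells, defined by *Ccr7* with *Fscn1* or *Cacnb3*, made up 1.19% and 1.09%, a ratio of 1.10 (0.742 to 1.62). Among these 3 classes together, cDC1s accounted for 25.9% in control (19.5 to 33.2) and 23.2% in NK cell-depleted tumors (17.9 to 29.3), a ratio of 1.12 (0.729 to 1.70). Counting only cDC1s with 3 or more rule genes, the shares were 17.6% (11.96 to 24.6) and 19.6% (14.5 to 25.6), with a ratio of 0.899 (0.533 to 1.49). The share of cDC1s within dendritic cells was therefore not distinguishable between libraries at this depth.

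Of the 20 genes outside the rule with the largest fold in cDC1s over all other kept cells, *Sept3*, a septin, ranked first, with folds of 28.3 in control and 38.8 in NK cell-depleted tumors. *Flt3* followed with 12.8 and 14.5, then *Cadm1*, an adhesion molecule, with 10.8 and 15.9. *Itgae*, which encodes the integrin CD103, had folds of 22.7 and 9.77, and *Btla*, an inhibitory receptor, 9.76 and 13.7. The transcription factor *Mycl* had 9.08 and 15.4, *Kit*, the stem cell factor receptor, 7.56 and 15.1, and *Cd24a*, a glycosylated surface protein, 7.29 and 8.70. *Cst3*, which encodes the protease inhibitor cystatin C, had folds of 7.72 and 6.62. *Ifi205*, an interferon-inducible gene, *Rtl8b*, *Rtl8a*, *Gramd2*, *A530099J19Rik*, *Hepacam2*, *Dbn1*, *Pianp*, *Htr7*, *Zfp366* and *Lrrk2* complete the list. Such folds are over all other cells together, and not every gene was set apart from other dendritic cells. *Flt3* helped to define the cDC2-like cells. *Zfp366* had 33 and 32 of 369435 and 278648 UMIs in migratory cells, against 19 and 32 of 352578 and 404663 in cDC1s. *A530099J19Rik*, in contrast, had 0 UMIs in cDC2-like and migratory cells. Of the other cDC1 genes fixed in a list, 4 were not set apart in cDC1s. *Cd8a*, known from cDC1s of lymphoid organs, had 0 UMIs in control and 1 in NK cell-depleted cDC1s, *Clnk* 0 and 1, and *Dnase1l3* 1 and 0. *Nfil3*, a transcription factor of the lineage, had lower levels than in the other cells, with folds of 0.627 and 0.479.

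Since deeper cells show more genes, detection was also compared after thinning each cell to 2000 UMIs. *Irf8* was then seen in 96.2% of control and 100% of NK cell-depleted cDC1s with 3 or more rule genes. In cDC2-like cells, which should lack high *Irf8*, the shares were 7.94% and 7.56%. In monocyte/macrophage-like cells they were 38.9% and 34.4%, and in migratory cells 66.7% and 47.7%. *Cd24a* was seen in 92.3% and 92.9% of these cDC1s and in 15.9% and 17.7% of cDC2-like cells. *Flt3*, shared by conventional dendritic cells, was seen in 42.3% and 45.2% of cDC1s. Before thinning, median depths were 8125 and 7606 UMIs in these cDC1s, 5210 and 6155 in cDC2-like and 5900 and 6238 in monocyte/macrophage-like cells.

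**Figure D3:**
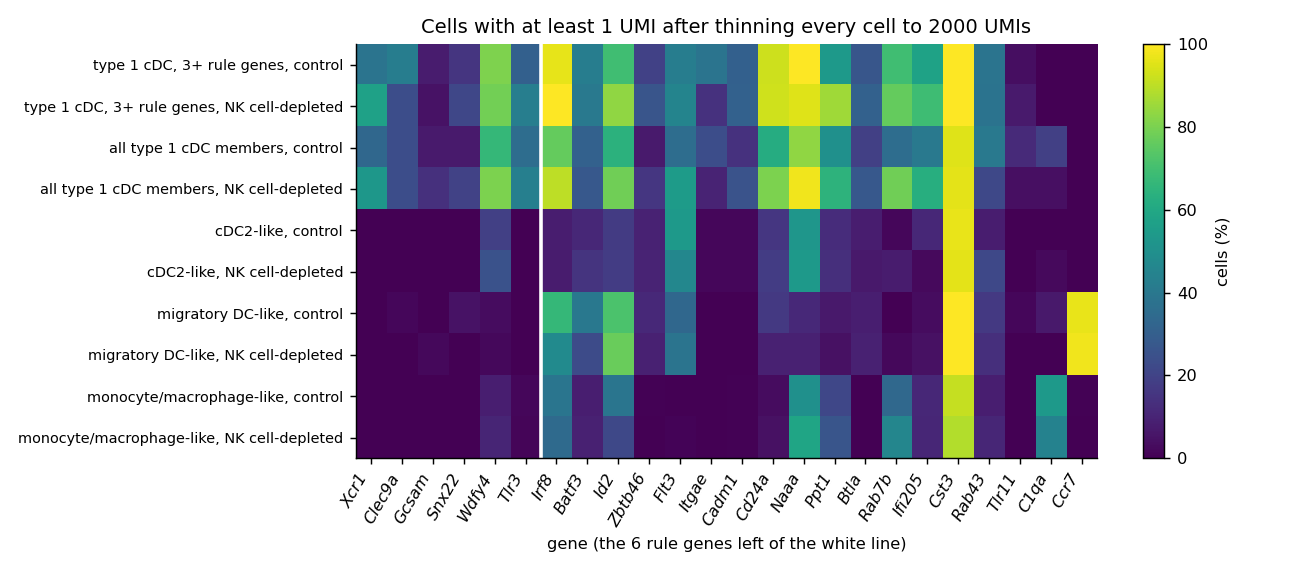
Share of cells with at least 1 UMI of each gene (color, percent) after thinning to 2000 UMIs, by cell class and library (rows) and gene (columns, the 6 rule genes left of the white line). *Irf8*, *Naaa* and *Cd24a* reach 92.3% to 100% in cDC1s with 3 or more rule genes, and *Cd24a* reaches at most 17.7% in cDC2-like cells. The rule genes, and *Ccr7* at 0, are set by how the cells were chosen.

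The lineage genes were then compared between libraries. Differences are log2 ratios of summed CPM (0.5 UMI added per sum) of the control to the NK cell-depleted library, so that negative values are lower in control. Over the 5030 genes with 20 or more UMIs in all cDC1s the median was -0.09, with 2161 genes higher and 2869 lower in control. Of the 5030 genes, 4.93% were 2-fold or more higher and 4.81% 2-fold or more lower in control. For the 3940 such genes of cDC1s with 3 or more rule genes the median was -0.07, with 3.17% and 5.28%, respectively. Of the 3940, 1745 were higher and 2195 lower in control. More genes were thus lower than higher at large, and the counts for each list below stand beside this.

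Of the other cDC1 genes, 17 of 20 reached 20 UMIs. In all cDC1s 4 of them were higher and 13 lower in control, with a median of -0.64. In cDC1s with 3 or more rule genes 6 were higher and 11 lower, with a median of -0.26, and 1 was past 2-fold. *Irf8* had 589 UMIs in control and 1097 in NK cell-depleted cDC1s, a difference of -0.70 (-0.85 to -0.55). With 3 or more rule genes it had 519 and 1035 UMIs, a median of 19.0 and 23.0 UMIs per cell, and a difference of -0.36 (-0.51 to -0.20). The smaller difference goes with the removal of cells that carry monocyte and macrophage markers, but a lower level beyond counting error remained.

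*Naaa* showed the same pattern, with 579 and 1161 UMIs in cells with 3 or more rule genes and a difference of -0.37 (-0.51 to -0.22). *Flt3* had 68 and 152 UMIs in these cells, a difference of -0.52 (-0.96 to -0.10). It had medians of 2 and 3 UMIs per cell and highest values of 6 and 11. *Cd24a* had 179 and 423 UMIs, a difference of -0.60 (-0.86 to -0.35), with medians of 6 and 9 per cell. *Id2*, a transcriptional regulator needed for the lineage, had 223 and 472 UMIs, a difference of -0.44 (-0.68 to -0.21). *Ppt1*, a lysosomal thioesterase, had 141 and 293, a difference of -0.41 (-0.72 to -0.12). For all 6 genes the cells of both libraries overlapped. In cDC2-like, migratory and monocyte/macrophage-like cells, *Flt3* was at -0.13, -0.58 and -1.21 and *Ppt1* at -0.29, 0.55 and -0.46. *Cd24a* was at -0.18, 0.17 and -0.30. *Flt3* was thus lower in control in each of these classes, and *Ppt1* and *Cd24a* in all but migratory cells. In cDC2-like cells all of these differences were smaller than in cDC1s. They are given without intervals, so whether the lower control levels are shared was not settled. *Irf8* (1.73, 0.65 and 0.17), *Naaa* (0.02, 1.05 and -0.22) and *Id2* (0.27, -0.24 and 0.76) were mostly higher in control in the other classes.

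Most other lineage genes outside the rule were within counting error in cells with 3 or more rule genes. *Batf3*, the transcription factor that sustains *Irf8*, had 44 and 56 UMIs, a difference of 0.29 (-0.31 to 0.89). *Zbtb46*, a factor of conventional dendritic cells, had 17 and 36, a difference of -0.42 (-1.37 to 0.42). *Btla* with 35 and 69 UMIs (-0.33, -0.97 to 0.27), *Cadm1* with 33 and 62 (-0.26, -0.93 to 0.36), *Rab7b* and *Ifi205* with negative values and *Rab43* and *Tlr11* with positive ones were also within it. Of the rule genes, *Xcr1* had 113 and 133 UMIs and was higher in control, past counting error (0.40, 0.03 to 0.78). *Clec9a* had 51 and 70 (0.18, -0.37 to 0.72). These levels describe the selection.

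*Itgae* and *Cst3* were higher in control. *Itgae* had 51 UMIs in 14 of 27 control and 29 UMIs in 14 of 42 NK cell-depleted cells with 3 or more rule genes, a difference of 1.44 (0.77 to 2.16). The highest cell held 9 of the control and 4 of the NK cell-depleted UMIs. After thinning, 10 of 26 control (38.5%) and 6 of 42 NK cell-depleted cells (14.3%) showed it, against 1.59% and 1.68% of cDC2-like cells and 0.0575% and 0.195% of monocyte/macrophage-like cells. CD103 marks cDC1s of many tissues. *Cst3* had 3939 and 3397 UMIs, a difference of 0.85 (0.78 to 0.92), with medians of 137 and 70.5 UMIs per cell. It alone made up 64.05% and 44.03% of the UMIs of the other cDC1 genes. The summed list was therefore higher in control, at 0.31 (0.26 to 0.36), although its median was below 0. In cDC2-like cells *Cst3* had 3260 CPM in control and 2403 in NK cell-depleted tumors, and in monocyte/macrophage-like cells 1601 and 1347, so its higher control level was not particular to cDC1s.

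**Figure D4:**
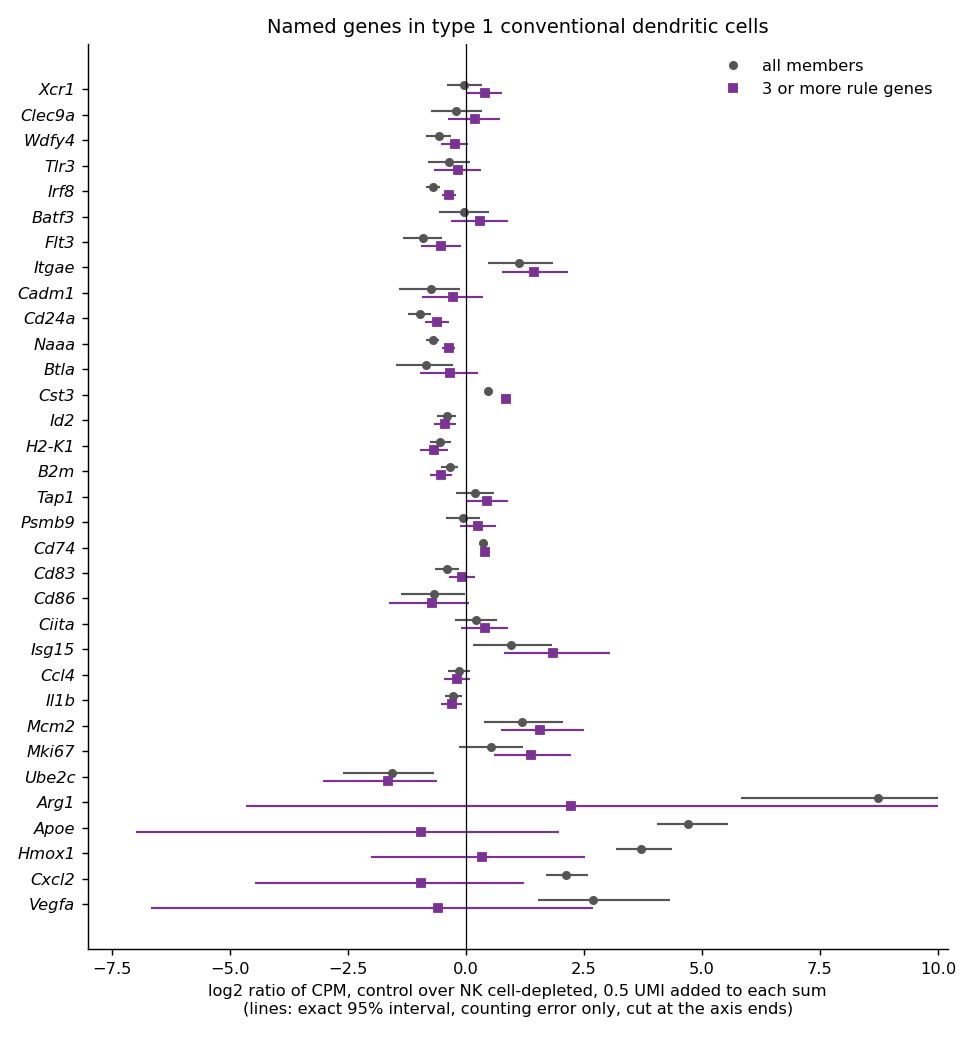
Log2 ratio of CPM, control to NK cell-depleted (x axis), of single genes (rows) in all cDC1s (circles) and in those with 3 or more rule genes (squares), with lines for exact 95% intervals that end at the axis limits. *Irf8* lies at -0.70 and -0.36, *Itgae* at 1.14 and 1.44 and *Cst3* at 0.46 and 0.85, whereas *Apoe* falls from 4.71 to -0.95 and *Cxcl2* from 2.13 to -0.95.

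Antigen presentation genes were examined next. Of the MHC class I pathway, 16 of 17 genes reached 20 UMIs. In all cDC1s 14 were lower and 2 higher in control, with a median of -0.23, and 0 passed 2-fold in either direction. The summed list was at -0.25 (-0.33 to -0.18), with 41.2 to 114 UMIs per 10000 in control cells (median 72.8) and 54.6 to 150 in NK cell-depleted cells (median 86.9). In cells with 3 or more rule genes the list split, with 8 genes higher, 8 lower and a median of 0.01, and its sum was -0.15 (-0.23 to -0.06). Genes of the class I molecule itself were on the lower side. *H2-K1*, a heavy chain, had 141 and 350 UMIs, a difference of -0.67 (-0.97 to -0.39). *B2m*, the light chain, had 233 and 521, a difference of -0.52 (-0.75 to -0.30), and *H2-D1* 167 and 337, a difference of -0.37 (-0.65 to -0.10). *Erap1*, which trims peptides, had the lowest value of the list, with 7 and 24 UMIs (-1.07, -2.60 to 0.12). The subunits of the peptide transporter were on different sides. *Tap1* had 82 and 93 UMIs (0.46, 0.01 to 0.90), and *Tap2* 41 and 84 (-0.39, -0.97 to 0.16). The tapasin relative *Tapbpl* (0.95, -0.23 to 2.19) and the immunoproteasome genes *Psmb8* (0.22, -0.12 to 0.56) and *Psmb9* (0.26, -0.12 to 0.63) were within counting error. *B2m*, *H2-D1*, *Psmb8* and *Psmb9* were named after their values were seen.

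A lower MHC class I sum in control was also present in the other classes, at -0.13 in cDC2-like, -0.16 in migratory and -0.26 in monocyte/macrophage-like cells, although the genes divided. In cDC2-like cells 8 of 16 were higher in control (median -0.01), in migratory cells 11 of 17 (median 0.22) and in monocyte/macrophage-like cells 5 of 17 (median -0.10). MHC class II genes had a sum of 0.00 (-0.04 to 0.04) in all cDC1s and 0.04 (-0.01 to 0.08) in those with 3 or more rule genes. Among them *H2-Oa* and *H2-Ob*, the inhibitory subunits of peptide loading, had values of -0.14 and -0.25, within counting error. *Ctss* and *Lgmn*, lysosomal proteases abundant in macrophages, were at 0.84 and 1.74 in all cDC1s and at -0.26 (-0.65 to 0.12) and 0.76 (-0.54 to 2.09) in those with 3 or more rule genes.

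Costimulatory genes were sparse, with 6 of 17 at 20 or more UMIs. *Cd86*, a ligand of CD28, had 30 UMIs in 19 of 44 control and 55 in 32 of 52 NK cell-depleted cDC1s, a difference of -0.66 (-1.37 to -0.01), and -0.72 (-1.62 to 0.06) with 3 or more rule genes. *Cd83*, a maturation marker, was at -0.39 (-0.65 to -0.14), or -0.08 (-0.36 to 0.19) with 3 or more. In all 3 other classes the costimulatory sum was lower in control as well, at -0.56, -0.32 and -0.32. Maturation genes had a sum of -0.33 in all cDC1s and of -0.15 (-0.36 to 0.06) in those with 3 or more rule genes. In these *Birc3*, an inhibitor of apoptosis, was at 1.24 (0.18 to 2.39) and *Nfkb1*, an NF-κB subunit, at -0.53 (-1.14 to 0.03).

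Interferon genes bear on the question of NK cell signals. Of 30 genes inducible by IFNγ only 7 reached 20 UMIs in all cDC1s, with 6 higher and 1 lower in control, 0 past 2-fold and a median of 0.20. Their sum was 0.14 (-0.06 to 0.33). In cells with 3 or more rule genes, 5 genes reached 20 UMIs, 4 of them higher, with a median of 0.33 and a sum of 0.33 (0.11 to 0.55). *Psmb9* alone made up 35.9% of the UMIs of this sum, and *Tap1* had 82 and 93. Both were described above with antigen presentation, so this sum is not separate from those values. Per cell, the list ranged from 5.41 to 29.3 UMIs per 10000 in control (median 16.2) and from 4.00 to 24.3 in NK cell-depleted cells (median 12.2), with wide overlap. *Ciita*, the regulator of MHC class II, had 66 and 78 (0.40, -0.10 to 0.89). Of the list *Tap1* alone was past counting error. The sum over all cDC1s turned to -0.25 when the 4 control cells and 1 NK cell-depleted cell above the upper limits on UMIs or genes were kept, and that of type I interferon genes to -0.46. The same sum was 0.21 in cDC2-like, 0.09 in migratory and 0.23 in monocyte/macrophage-like cells. *Cxcl9*, a chemokine induced by IFNγ, had 4 UMIs, all in 1 control cDC1, and 0 in the NK cell-depleted library. In monocyte/macrophage-like cells *Cxcl9* had 220 and 16 UMIs. *Ifngr1*, the ligand-binding chain of the IFNγ receptor, was not chosen by the naming rule stated below. It had 48 and 117 UMIs in cDC1s with 3 or more rule genes, a difference of -0.64 (-1.16 to -0.15). Its level was also lower in control in cDC2-like cells, at 274 against 362 CPM, and in monocyte/macrophage-like cells, at 277 against 362 CPM.

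Type I interferon genes divided evenly in all cDC1s, with 9 higher, 9 lower, a median of -0.02 and a sum of -0.06 (-0.21 to 0.08). In cells with 3 or more rule genes, 8 were higher and 5 lower, with a median of 0.28 and a sum of 0.16 (-0.03 to 0.34). Without the 1 control and 1 NK cell-depleted cell of these that held markers of another cell type, the sum was -0.09 (-0.29 to 0.11) and the median -0.02. *Isg15*, a ubiquitin-like protein induced by interferon, had 26 and 11 UMIs in these cells, a difference of 1.84 (0.81 to 3.04), with 14 of the 26 in 1 cell. *Irf9*, a subunit of the type I interferon signaling complex, went the other way, with 10 and 40 UMIs and a difference of -1.31 (-2.53 to -0.34). *Ifi211*, another interferon-inducible gene and not on the list, had 35 and 110 UMIs, with an interval of the difference from -1.61 to -0.45.

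**Figure D5:**
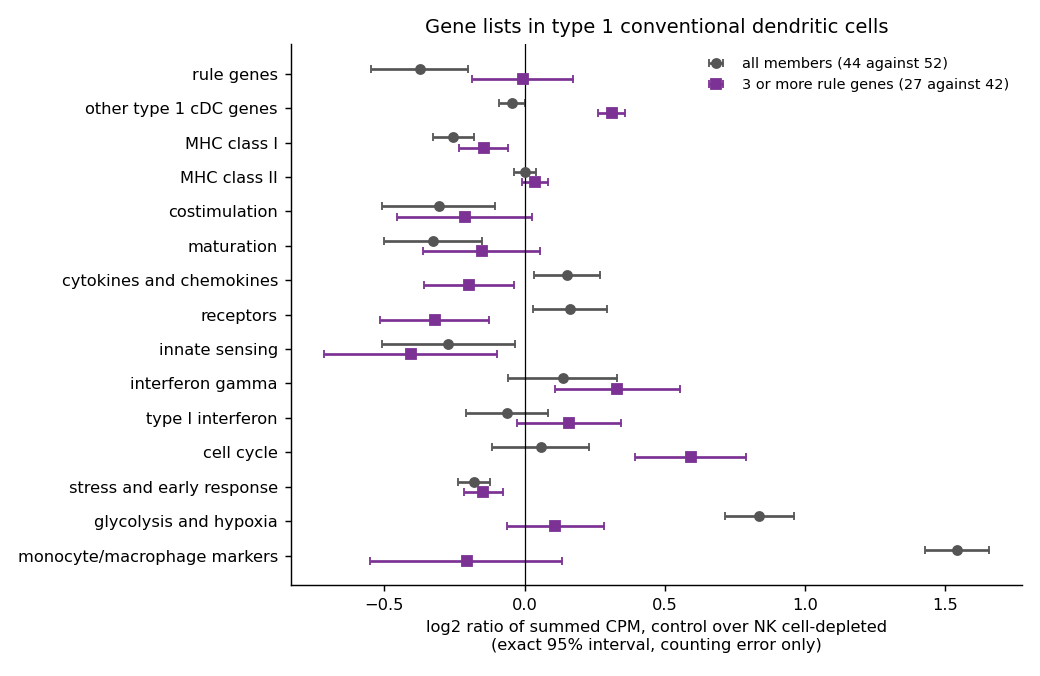
Summed log2 ratio of gene lists, control to NK cell-depleted (x axis), for all cDC1s and for those with 3 or more rule genes, with points for the ratios and bars for exact 95% intervals. Monocyte/macrophage markers (1.54) and glycolysis and hypoxia genes (0.84) stand to the right for all cDC1s and move to -0.21 and 0.11 with 3 or more rule genes, whereas cell cycle genes move from 0.06 to 0.59.

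The genes through which NK cells could act on cDC1s were located in the whole libraries. In control, 94.4% of the 606 UMIs of *Xcl1*, the XCR1 ligand, and 89.2% of the 406 UMIs of *Ifng* lay in NK-like cells. The NK cell-depleted library had 0 and 16 UMIs. *Ccl5*, a further chemokine with receptors on dendritic cells, had 10054 UMIs in control, 74.1% of them in NK-like cells, and 1235 in the NK cell-depleted library. *Flt3l*, the FLT3 ligand, had 366 and 397 UMIs, with 77 of the 366 in NK-like cells. *Csf2* had 109 and 86 UMIs, 42.2% of those in control in NK-like cells. cDC1s themselves had 0 UMIs of *Xcl1*, *Ifng* and *Csf2* in both libraries.

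Of 24 cytokine and chemokine genes in the files, 9 reached 20 UMIs in all cDC1s, 5 higher and 4 lower in control. With 3 or more rule genes 3 of 7 were higher, with a median of -0.19. No UMI of *Il12b* or *Il12a*, the subunits of IL-12, was detected in either library, which allows up to 8.51 and 7.41 CPM. In migratory cells *Il12b* had 113 and 144 UMIs. *Il1b*, named after its values were seen, had 242 and 463 UMIs in cDC1s with 3 or more rule genes, a difference of -0.30 (-0.53 to -0.07). It was seen in 14 of 27 and 28 of 42 of these cells. *Cxcl16*, a ligand of the lymphocyte receptor CXCR6, had 21 and 13 UMIs (1.31, 0.26 to 2.45). *Tgfb1* had 25 and 19 (1.02, 0.11 to 1.98). *Ccl4*, a chemokine of inflammation, had 181 and 321 UMIs (-0.19, -0.46 to 0.08). *Ccl3*, a related chemokine, had 2 and 33 (-3.11, -6.51 to -1.44), with 18 of the 33 in 1 cell. *Il18*, an activator of NK cells, had 6 and 19 (-0.95, -2.64 to 0.36).

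Among receptors, *Cxcr3*, a receptor for CXCL9 and CXCL10, was named after its values were seen. It had 15 UMIs in 11 of 27 control and 18 UMIs in 14 of 42 NK cell-depleted cells with 3 or more rule genes. No *Cxcr3* UMI lay in a cell with exactly 2, and cDC2-like cells had 0 in both libraries. Its level in control against NK cell-depleted cells was within counting error, at 0.38 (-0.72 to 1.45). *Ccr2*, a receptor of monocyte chemoattractants and also named afterwards, had 122 and 268 UMIs, a difference of -0.49 (-0.82 to -0.18). *Ccr1*, a chemokine receptor, *Csf1r* and *Tgfbr1*, a TGF-β receptor, were higher in control in all cDC1s (1.55 to 2.24). With 3 or more rule genes, *Csf1r* had 0 and 3 UMIs, *Tgfbr1* 5 and 4, and *Ccr1* 5 and 0. Of the receptors of prostaglandin E2, *Ptger2* had 8 and 8 UMIs in all cDC1s, in 6 and 5 cells (0.20, -1.41 to 1.81). *Ptger4* had 25 and 35, in 10 and 22 cells (-0.28, -1.09 to 0.50). *Ptger1* and *Ptger3* had 0 UMIs in both libraries. These 4 genes belong to the receptor list and were named after their values were seen.

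Of the innate sensing genes, 7 of 18 reached 20 UMIs, 3 higher and 4 lower in control, and 2 of 6 were higher with 3 or more rule genes, where the sum was -0.41 (-0.72 to -0.10). *Myd88*, the adaptor of most Toll-like receptors, had 13 and 40 UMIs in cells with 3 or more rule genes, a difference of -0.95 (-2.01 to -0.05). *Unc93b1*, which carries endosomal Toll-like receptors and was named after its values were seen, had 76 and 167, a difference of -0.49 (-0.91 to -0.10). *Ifih1* (15 and 11 UMIs) and *Mb21d1*, which encodes cGAS (12 and 11), were within counting error.

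cDC1s varied widely in cell cycle genes. Per cell, these ranged from 0 to 124 UMIs per 10000 in control (median 3.97) and from 0 to 74.0 in NK cell-depleted cells (median 3.83). The control maximum came from a shallow cell of 1052 UMIs with exactly 2 rule genes. With 3 or more rule genes the highest control cell had 85.1. After thinning, 13 of 42 control (31.0%, 17.6 to 47.1) and 14 of 51 NK cell-depleted cDC1s (27.5%, 15.9 to 41.7) showed 3 or more of the 26 genes, a ratio of 1.13 (0.488 to 2.59). Without thinning they numbered 20 of 44 and 26 of 52. With 3 or more rule genes, 11 of 26 (42.3%) and 12 of 42 (28.6%) did so, a ratio of 1.48 (0.592 to 3.67). These shares were not distinguishable at this depth.

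The sum of cell cycle UMIs was higher in control cells with 3 or more rule genes, at 0.59 (0.40 to 0.79), with 13 of 15 genes higher and a median of 0.67. In all cDC1s the sum was 0.06 (-0.12 to 0.23), with 9 genes higher and 9 lower. *Mcm2*, a subunit of the replicative helicase, had 35 and 18 UMIs (1.58, 0.74 to 2.50), in 12 and 11 cells, and *Rrm2*, which supplies nucleotides, 20 and 13 (1.24, 0.18 to 2.39). *Mki67* and *Top2a*, both expressed in dividing cells and named after their values were seen, were higher as well, at 1.37 (0.59 to 2.22) and 0.67 (0.08 to 1.25). *Ube2c*, which acts in mitosis, had 8 and 41 UMIs (-1.65, -3.02 to -0.61), 22 of the 41 in 1 cell. *Ccnb2*, a mitotic cyclin, had 1 and 15, under the minimum of 20 UMIs in these cells. The cell cycle sum was -0.13 in cDC2-like, -0.99 in migratory and 0.24 (0.17 to 0.30) in monocyte/macrophage-like cells, where 22 of 26 genes were higher.

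Stress and early response genes had a sum of -0.18 (-0.24 to -0.12) in all cDC1s and of -0.15 with 3 or more rule genes. The early gene *Nr4a1* had 149 and 336 UMIs in the latter (-0.53, -0.82 to -0.25). The heat shock genes *Hspa1a* and *Hspa1b* were at -0.86 and -0.38. This sum was lower in control in the other classes as well, at -0.25, -0.55 and -0.40. Of the glycolysis and hypoxia genes, 14 of 14 with 20 or more UMIs were higher in control over all cDC1s, 5 past 2-fold, with a median of 0.95. With 3 or more rule genes 6 of 10 were higher, 0 past 2-fold, with a sum of 0.11 (-0.06 to 0.28). *Vegfa* had 36 and 6 UMIs in all cDC1s, 26 of them in 1 control cell, and 1 and 3 in cells with 3 or more rule genes.

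The genes with the largest differences over all cDC1s followed the same division. Of the 10 highest in control outside the marker lists, *Hmox1*, which degrades heme, had 314 and 27 UMIs (154 in 1 cell), and 4 and 5 with 3 or more rule genes. *Rgs1*, a regulator of chemokine receptor signaling, had 111 and 16 UMIs, and 22 and 11 with 3 or more (1.61, 0.53 to 2.83). A single cell per library held 14 of the 22 and 7 of the 11. *Dab2*, an endocytic adaptor, had 77 and 12, and 9 and 0 with 3 or more. *Cxcl2*, a neutrophil chemokine, had 211 and 55, and 2 and 7 with 3 or more. *Bcl2a1b*, *C3ar1*, *Cd14*, *Ctsl*, *Lst1* and *Ndrg1* complete these 10. *Apoe*, one of the monocyte and macrophage markers, had 399 and 17 UMIs, and 1 and 4 with 3 or more rule genes. *Arg1*, an arginase of myeloid cells named after its values were seen, had 185 UMIs in control and 0 in NK cell-depleted cDC1s, at least 70.8-fold higher against a limit of 3 counts. Of the 185 UMIs 135 lay in 1 cell, and 1 lay in cells with 3 or more rule genes.

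Of the 10 lowest in control, all but *Ube2c*, seen in 6 and 9 cells, were seen in at least 22 NK cell-depleted cDC1s. All 10 were also lower in control with 3 or more rule genes. Those cells are a large part of the cDC1s from which the genes were chosen, so this is no separate check. *Phb2*, a mitochondrial prohibitin, had 15 UMIs in 13 control and 51 in 32 NK cell-depleted cDC1s, with a difference of -1.72 (-3.09 to -0.68) in cells with 3 or more rule genes. *Per1*, a circadian repressor, was at -2.66 (-5.21 to -1.20) in these cells, with 3 and 34 UMIs and at most 3 per cell. *Mgea5*, which removes O-linked N-acetylglucosamine, was at -1.38 (-2.77 to -0.31), *Ptpa* at -1.18 (-2.14 to -0.36), *Txndc5* at -1.07 (-2.08 to -0.22), *Plekha1* at -1.11 (-2.27 to -0.15) and *Marc2* at -1.03 (-2.20 to -0.07). *St3gal4*, a sialyltransferase, was within counting error, at -0.85 (-2.10 to 0.18). *Ube2c* and *Ifi211*, described above, complete the list. These genes were chosen by size among 5030, so that their values describe the extremes of this pair of libraries.

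Monocyte and macrophage markers in all cDC1s were at 6166 CPM in control and 2118 CPM in NK cell-depleted tumors, and the part of these markers in the differences over all cDC1s was not tested. With 3 or more rule genes their levels were 530 and 611 CPM over the 1 marker, *Lyz2*, that reached 20 UMIs there, and *Csf1r*, *C1qa*, *C1qb* and *C1qc* were at or near 0.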

How the data were processed

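Single-cell RNA libraries of CD45+ tumor cells were made with droplet 3′ chemistry from 16000 loaded cells each. cDNA was amplified for 11 cycles and indexed for 14. The values deposited are UMI counts per gene and called cell, 1 matrix per library. Per the file headers, these counts came from Cell Ranger 3.0.2, a release other than that in the study's methods. The submitters' processing notes name mm10, Cell Ranger and bcl2fastq. The genome build bears only on the gene positions given.

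Cells were kept by the authors' stated limits (UMIs from 500 to 15000, genes from 200 to 4000, mitochondrial UMIs up to 10%), which left 5292 of 6115 and 4506 of 5536 cells. Groups came from the sample titles, with 1 library each. cDC1s were chosen by the rule given above. Their members and all gene lists were chosen with earlier results of these data known, so no list is independent evidence. For each class, the UMIs of a library were added up and expressed per 1000000. Shares have exact Clopper-Pearson intervals, and ratios exact conditional binomial ones. A count of 0 allows up to 3 counts. Lists used genes with 20 or more UMIs over both libraries. No p-value was computed, since cells are not replicates. UMIs remove PCR duplicates, and the intervals and limits cover counting error only.

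Named genes were all rule genes and other cDC1 genes, up to 4 genes per other list with the largest change, the NK cell signals, the 10 highest and 10 lowest log2 ratios among genes with 50 or more UMIs in at least 10% of cDC1s, and the 20 largest folds over other cells, with 5 CPM added, among genes seen in at least 20% of cDC1s. Other names are stated as such or give a list's markers, except *Ifngr1*, *Cxcl9*, *Il12a* and *Il12b*, which this rule did not choose either. Some genes that this rule or a list holds are not reported here. cDC2-like cells had *Cd209a* and *Flt3* and lacked *Fcgr1*, *Siglech*, *Ccr7*, *Cd3e*, *Xcr1* and *Clec9a*. Migratory cells had *Ccr7* with *Fscn1* or *Cacnb3*, and lacked *Cd3e* and *Cd79a*. Monocyte/macrophage-like cells had *Fcgr1* and *Csf1r*, and NK-like cells 2 or more of 6 NK markers without *Cd3e*. These classes were rebuilt from the counts, and their definition may account for differences from the study.

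Scrublet (scanpy 1.11.5, expected rate 5%) marked 0 and 3 cells, too few for this loading, and had thus not worked, so leaving out cDC1s with markers of another cell type served as the alternative. Thinning drew 2000 UMIs per cell without replacement. Alternatives also covered the number of rule genes, the excluded genes, the filter, the denominator, the per-cell mean, centring and the highest cell. The scripts used Python 3.11.15, numpy 2.4.6, scipy 1.17.1 and pandas 2.3.3, and were tested on simulated data.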

Additional observations from a re-analysis of the deposited data

Results flagged for a closer look

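Cells above the upper limits of 15000 UMIs or 4000 genes were used in no comparison of the main text. In the control library 4 of 212 such cells met the gene rule of cDC1s, a share of 1.89% (0.516 to 4.76), with a median of 40456 UMIs. In the NK cell-depleted library 1 of 353 did so, a share of 0.283% (0.00717 to 1.57). The control value was flagged because 4 cells exceed the 3 that a count of 0 would allow. In each library 1 of these cells had 4 or more rule genes. Of cells with over 10% mitochondrial UMIs or below the lower limits, 2 of 611 and 3 of 677 met the rule.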

How the results depend on the processing

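The ratio of cDC1 shares was below 1 under all 9 alternatives. It ranged from 0.497 with 4 or more rule genes to 0.913 with the stricter filter on UMIs and mitochondrial share. The ratio of shares with cell cycle genes stayed within counting error under all those run. The IFNγ list, at 0.14 in all cDC1s, moved to 0.33 with 3 or more rule genes and with cells carrying markers of another type left out, to 0.47 with no gene excluded, to 0.46 after thinning and to -0.25 where cells above 15000 UMIs or 4000 genes were kept. The type I interferon list, at -0.06, moved to 0.16 with 3 or more rule genes, to 0.22 with no gene excluded and to -0.46 without upper limits. The MHC class I list, at -0.25, moved to -0.15 with 3 or more rule genes, -0.18 with no gene excluded, -0.44 without upper limits, -0.17 with cells carrying markers of another type left out, -0.16 with 3 or more rule genes and such cells left out together (chosen after seeing the data) and -0.16 after centring on the median gene. The cause of these moves was not tested beyond the change of cells itself.

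Of 110 named genes, 65 were past counting error over all cDC1s. Many of the 110 were named for a large difference, so this count does not describe genes at large. Of these 65, 10 changed sign with 3 or more rule genes: *Apoe* (-0.95), *Bnip3* (-0.10), *C1qb* (-0.21), *Csf1r* (-2.17), *Ctsl* (-0.014), *Ctss* (-0.26), *Cxcl2* (-0.95), *Eno1* (-0.19), *Mgl2* (-2.53) and *Vegfa* (-0.58). With cells carrying markers of another type left out, 6 of the 65 did so: *Apoe* (-0.65), *C1qb* (-0.80), *Ctsl* (-0.32), *Mgl2* (-1.298), *Oasl2* (-1.01) and *Vegfa* (-1.01). With no gene excluded, of the 65, *Mgl2* (-0.047) and *Oasl2* (-0.32) did so, and after thinning *Birc3* (-0.27). Without upper limits, with per-cell means, after centring and without the highest cell 0 of the 65 changed sign. With the genes within counting error included, 17, 14, 10, 15, 10, 6, 3 and 4 of the 110 changed sign under these 8 alternatives, in the order given. No paired analysis was possible because each group is 1 library, and for the same reason no replicate could be left out. Depth limits all genes under 20 UMIs, most of the IFNγ and costimulatory lists among them.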
